A study of Mus musculus with 48 samples.

Results

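Amino acids, short peptides and calcium in the gut lumen are sensed by a small set of G protein-coupled receptors, and 6 of their genes were followed here, Casr, Gprc6a, Gpr142, Lpar5, Tas1r3 and Tas1r1, out of 53465 genes in the count table. They were chosen by name, as known sensors of these nutrients but with earlier results of these data known, and each was found by its Ensembl identifier. The libraries were made from enteroendocrine cells (EECs), the hormone-producing cells of the gut epithelium, purified by flow cytometry as fluorescent cells from lean male Neurod1-cre/EYFP mice on a C57BL6 background. In these mice Cre from the Neurod1 gene switches on EYFP in cells that express, or descend from cells that expressed, the endocrine transcription factor Neurod1, and the controls carried the same alleles. Vertical sleeve gastrectomy (VSG) took away about 70% of the stomach, as the labels state it. VSG mice were compared with sham-operated mice that ate freely (sham ad libitum, S_al) and with sham-operated mice whose food was given in 2 daily portions to hold them at the VSG body weight (sham weight-matched, S_wm). VSG mice also had a weekly vitamin B12 injection, so that surgery and vitamin cannot be told apart. All were about 20 weeks old at surgery, had a liquid diet around it and chow otherwise, and were killed 6 weeks later after an overnight fast and about 15 min after 3 g/kg glucose by gavage. Duodenum here is the top 5 cm of the small intestine, ileum the bottom 15 cm, and colon the colon with the rectum. Each region had 5 S_al, 5 S_wm and 6 VSG libraries, 48 in all from 17 mice, of which 15 gave all 3 regions.

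EECs taste the luminal contents through receptors and release hormones such as glucagon-like peptide 1 (GLP-1), glucose-dependent insulinotropic polypeptide (GIP) and cholecystokinin (CCK) in response. CaSR is a class C receptor that responds to extracellular calcium and is sensitized by aromatic amino acids, which couples protein and mineral intake to hormone release. GPRC6A, a class C relative, responds to basic amino acids, and GPR142, a class A receptor also known from pancreatic islets, to aromatic amino acids such as tryptophan. LPAR5, once the orphan receptor GPR92/93, responds to lysophosphatidic acid (LPA) and has been described as a sensor of protein hydrolysate. TAS1R1 and TAS1R3 pair to form the umami receptor for L-amino acids, while TAS1R3 pairs with TAS1R2 as the sweet receptor. CaSR, GPRC6A, GPR142 and LPAR5 are known to signal largely through Gq-type G proteins and phospholipase C, whereas the taste receptors use gustducin, phospholipase C beta 2 and the cation channels TRPM5 and TRPM4.

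The libraries held between 4648651 and 17182463 counts each, 6713018 at the median. Levels are given as CPM (counts scaled to a common library size) by edgeR's TMM method, and as CPM per kilobase of exon where genes are compared with each other. Of the 53465 genes, 15126 passed the filter on low counts, and each p from the quasi-likelihood test of edgeR was adjusted across these genes by the Benjamini-Hochberg method. Casr, Gpr142, Lpar5 and Tas1r3 were among them, whereas Gprc6a and Tas1r1 had too few counts. The sum of 10 EEC markers such as Chga had a median of 55560 CPM in duodenum, 43430 CPM in ileum and 46790 CPM in colon libraries. Of the listed pancreatic markers, the insulin genes Ins1 and Ins2 had 2 and 5 counts in the duodenum, 0 in the ileum, and 0 and 1 in the colon, and the acinar gene Prss2 had 0 in every library. Iapp (6329, 2800 and 6542 counts), Ucn3 (10335, 2522 and 54) and the acinar list's Cela1 (967, 560 and 6286) were present in all 3 regions. The duodenum library of S_wm mouse 27 stood apart, with an EEC marker sum of 11720 CPM where the next lowest duodenum library had 37280 CPM, and with an enterocyte marker sum of 42070 CPM against a median of 6107 CPM. For S_al mouse 12 the labels of the ileum and colon libraries contradict each other. The tissue label was used, and the 2 ileum markers, at 1054 CPM in its ileum library and 27.8 CPM in its colon library, go with it. RNA from bulk-sorted cells cannot tell fewer cells of a type from less RNA per cell.

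The start regions of Casr and Gpr142, the tested members that fell in all 3 region comparisons, are shown, with 1 start region of Lpar5, which passed the test in 1 of them. They are the 250 bases upstream of RefSeq start sites on GRCm38.p6, written 5′ to 3′ on the gene's strand. All 6 members matched the RefSeq table, with 8 start sites. Casr lies on the minus strand with its window at chr16:36562135-36562384. Gpr142 has 2 start sites on the plus strand, with windows at chr11:114798674-114798923 and chr11:114803286-114803535. Lpar5 also has 2 start sites on the plus strand, and the window of the second is at chr6:125071085-125071334. Capitals mark matches to the E-box CAGATG bound by NEUROD1-type factors, the GATA motif AGATAA, the CDX motif TTTATG and the TATA box TATAAA, each searched on both strands with overlaps allowed.
Casr: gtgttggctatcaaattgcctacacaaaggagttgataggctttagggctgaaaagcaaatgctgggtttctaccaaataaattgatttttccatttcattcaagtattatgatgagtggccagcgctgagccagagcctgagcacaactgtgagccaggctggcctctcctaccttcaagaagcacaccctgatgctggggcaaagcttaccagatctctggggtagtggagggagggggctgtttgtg
Gpr142 start 1: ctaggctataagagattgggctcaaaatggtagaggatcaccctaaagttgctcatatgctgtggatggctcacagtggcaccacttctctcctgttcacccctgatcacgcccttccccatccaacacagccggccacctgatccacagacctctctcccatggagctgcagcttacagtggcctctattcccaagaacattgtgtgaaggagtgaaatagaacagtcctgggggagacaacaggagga
Gpr142 start 2: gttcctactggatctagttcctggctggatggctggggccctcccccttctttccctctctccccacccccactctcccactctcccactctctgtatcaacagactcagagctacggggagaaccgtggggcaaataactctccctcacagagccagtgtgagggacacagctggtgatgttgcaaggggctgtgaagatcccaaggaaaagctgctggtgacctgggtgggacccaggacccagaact
Lpar5 start 2: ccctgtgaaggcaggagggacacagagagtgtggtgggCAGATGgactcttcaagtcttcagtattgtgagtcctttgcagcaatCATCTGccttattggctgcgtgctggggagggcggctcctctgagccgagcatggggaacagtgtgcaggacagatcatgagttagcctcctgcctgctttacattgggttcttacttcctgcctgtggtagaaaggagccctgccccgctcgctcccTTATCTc
No match stood in the Casr window or in either Gpr142 window, whereas this Lpar5 window held 2 E-boxes and a GATA motif. Of the 4 windows not printed, that of Gprc6a also held 2 E-boxes and a GATA motif, and those of Lpar5 start 1, Tas1r3 and Tas1r1 held 1 E-box each. Among 32851 windows of the same length, 14.4% held the E-box, 9.99% the GATA motif, 10.8% the CDX motif and 12.4% the TATA box. A match describes letters only, and no match says nothing about binding outside these 250 bases.

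The order of the receptors changed along the gut. In the duodenum Casr was the highest at 10.8 ± 3.95 CPM per kilobase (SD, n = 16), above 77.5% of the tested genes. It was followed by Lpar5 at 5.38, Gpr142 at 1.93, Tas1r3 at 0.71, Gprc6a at 0.0881 and Tas1r1 at 0.00276 CPM per kilobase, and each of the first 4 was above the next in at least 14 of 16 libraries. In the ileum Lpar5 was the highest at 6.16 CPM per kilobase and stood above Casr, at 3.86, in 12 of 16 libraries, while Gpr142 at 0.802 and Tas1r3 at 0.763 did not separate (8 of 16 libraries each way). In the colon Lpar5, at 4.33, stood above Casr, at 1.34, in 16 of 16 libraries, and Tas1r3 at 0.632 came before Gpr142 at 0.318 and Gprc6a at 0.288, the last 2 of which did not separate (9 of 16 libraries). Casr thus lay above 29.7% of the tested genes in the colon, and Lpar5 above 55.8%. After group means were subtracted, Lpar5 had a Pearson r of -0.467 with the EEC marker sum and 0.542 with the enterocyte sum (48 libraries). Without the 2 libraries of most extreme sum these were -0.227 and 0.359. For Casr they were 0.552 and -0.503, and 0.348 and -0.276 without those libraries. The part of other cell types in the order of the receptors was not tested.

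**Figure D1:**
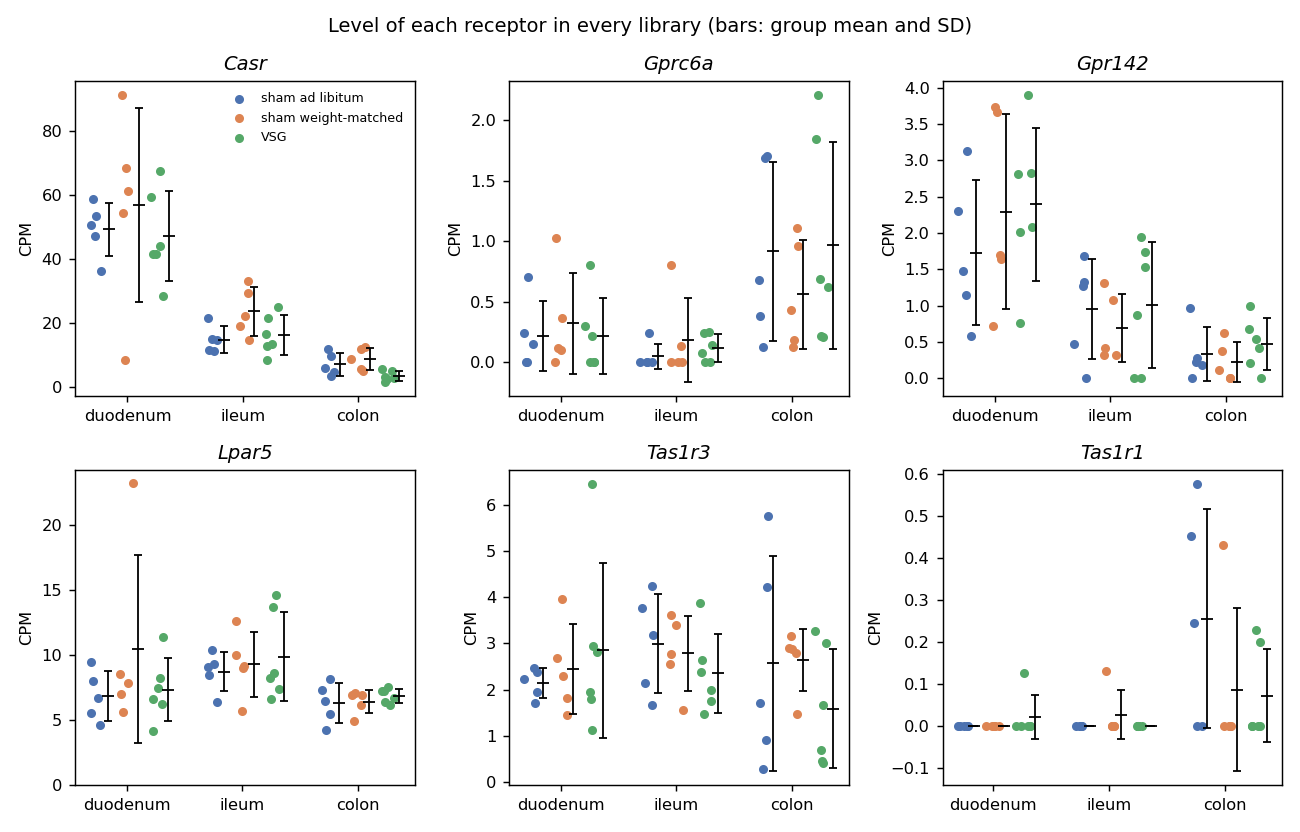
Level of each receptor in CPM (y axis, linear, 1 scale per panel) in the 48 libraries, by region (x axis) and surgery group (colour), 1 point per library with the group mean and SD as bars. Casr and Gpr142 fall from duodenum to colon, Gprc6a is highest in the colon, and the single high Lpar5 point is the duodenum library of S_wm mouse 27.

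Casr, on chromosome 16 (GRCm38 chr16:36493696-36562141, minus strand, 7 exons in its longest transcript), showed the steepest gradient of the tested members. In the duodenum its level ran from 8.53 to 91.1 CPM with a median of 52.0 CPM, and the lowest value was that of mouse 27. The ileum libraries ran from 8.41 to 33.3 CPM around a median of 15.8 CPM. In the colon they lay between 1.69 and 12.5 CPM, with a median of 5.37 CPM. The ranges of the regions overlap, but 11 of 16 colon libraries were below every duodenum library and 11 of 16 were below every ileum library. Within mice, Casr was lower in the ileum than in the duodenum in 14 of 15, in the colon than in the duodenum in 15 of 15, and in the colon than in the ileum in 15 of 16.

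By edgeR the log2 fold change of Casr was -1.51 ± 0.20 (SE) from duodenum to ileum (adjusted p = 6.86e-08), -3.04 ± 0.22 from duodenum to colon (adjusted p = 3.56e-16) and -1.53 ± 0.22 from ileum to colon (adjusted p = 8.11e-08). These are levels 2.84, 8.22 and 2.89 times lower. Gene-wide changes between regions were common: 33.8% of tested genes differed for ileum against duodenum, 55% for colon against duodenum and 49.2% for colon against ileum, and 16.6%, 28.3% and 25.4% were lower in the more distal region. Of the 4 tested members, Casr and Gpr142 fell in the first 2 of these comparisons, and Casr, Gpr142 and Lpar5 in the third. Without the duodenum library of mouse 27, the mean duodenum level was 53.7 ± 15.4 CPM (SD, n = 15) and the 3 fold changes were -1.60, -3.11 and -1.51. Of 10 general EEC markers, 7 fell and 1, Chga (from 17270 to 21930 CPM), rose from duodenum to colon, with a median log2 fold change of -1.65 against -0.01 for all tested genes, and Neurod1 itself changed by -1.36 ± 0.15. Their part in the Casr difference was not tested.

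**Figure D2:**
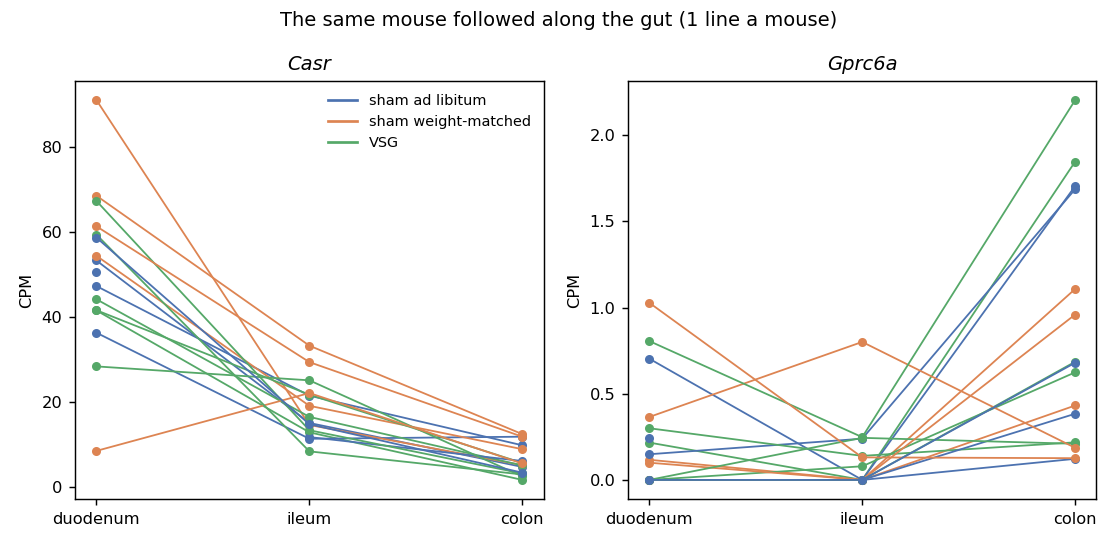
Casr (left) and Gprc6a (right) in CPM (y axis, linear) in the duodenum, ileum and colon (x axis), with 1 line per mouse coloured by surgery group. Between duodenum and colon, Casr is lower in the colon of 15 of 15 mice and Gprc6a is higher there in 12 of 15.

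Gpr142, on chromosome 11 (chr11:114798924-114806745, plus strand), was lower than Casr throughout and fell in the same order. In the duodenum it ran from 0.586 to 3.90 CPM with a median of 2.05 CPM. In the ileum it ran from 0 to 1.95 CPM with a median of 0.975 CPM, and 3 of 16 libraries had no count. In the colon it ran from 0 to 1 CPM with a median of 0.254 CPM, with no count in 4 of 16 libraries and 38 counts in all. The ranges overlapped in every pair of regions, and Gpr142 was lower in the ileum than in the duodenum of 14 of 15 mice and lower in the colon of 14 of 15. By edgeR its log2 fold change was -1.27 ± 0.44 from duodenum to ileum (adjusted p = 0.0205), -2.59 ± 0.48 from duodenum to colon (adjusted p = 8.7e-06) and -1.32 ± 0.50 from ileum to colon (adjusted p = 0.0246).

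The smaller steps of Gpr142 depended on single mice and on the fit. From ileum to colon the adjusted p was 0.0548 with the mouse as a fixed block and 0.101 with limma voom and the mouse as a random block, and between 0.0554 and 0.0669 without S_al mouse 13 or 24, S_wm mouse 21 or VSG mouse 25. From duodenum to ileum it was 0.0609 without S_wm mouse 16 (log2 fold change -1.13) and 0.0612 without S_al mouse 19 (-1.12).

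The library index D501 to D504 partly followed the region, and the 4 tested members were therefore compared within an index, a comparison chosen after the data were seen. The index also partly followed the surgery group, since no VSG duodenum library carried D501, and the comparisons mix surgery groups. Duodenum libraries carried D501 (4 libraries) or D502 (12), ileum libraries mainly D501 (7) or D503 (8), and colon libraries mainly D503 (4) or D504 (11), so that a comparison could be made between ileum and duodenum within D501 and between colon and ileum within D503. Within D501, ileum libraries had 17.7 ± 4.62 CPM of Casr (SD, n = 7) and duodenum libraries 39.2 ± 22.6 CPM (n = 4; exact permutation test, two-sided, p = 0.121). Mouse 27 is one of those 4. Without it the duodenum libraries, from 36.4 to 58.8 CPM, all stood above the ileum libraries, from 11.8 to 25.1 CPM (exact permutation p = 0.00833, the smallest this size allows, and 0.05 when adjusted over 12 such comparisons). Within D503, Casr was 5.04 ± 4.61 CPM (n = 4) in the colon and 19.1 ± 9.01 CPM (n = 8) in the ileum (exact permutation p = 0.00606, adjusted 0.05). Neither adjusted value is below the threshold of 0.05. Of the 4 colon libraries of D503, 3 came from mice that also gave an ileum library of D503, and 1 mouse gave both regions in D501, which the permutation treats as independent.

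The steps of Gpr142 were within the spread of the libraries when an index was held fixed. Within D501 it was 1.25 ± 0.546 CPM (n = 7) in the ileum and 0.986 ± 0.409 CPM (n = 4) in the duodenum (exact permutation p = 0.545). Of the 12 duodenum libraries of D502, 11 were above every duodenum library of D501. Within D503 it was 0.465 ± 0.443 CPM (n = 4) in the colon and 0.693 ± 0.657 CPM (n = 8) in the ileum (exact permutation p = 0.669). With the index as a covariate in edgeR, the log2 fold changes of Gpr142 were 0.46 ± 0.77 from duodenum to ileum and 0.28 ± 0.94 from duodenum to colon, with adjusted p of 0.786 and 0.871. Those of Casr were -0.85 ± 0.42 (adjusted p = 0.204), -2.63 ± 0.50 (adjusted p = 6.71e-05) and, from ileum to colon, -1.78 ± 0.30 (adjusted p = 5.61e-06). For Gpr142 region and index cannot be told apart, and the Casr step from duodenum to ileum did not pass the test with the index as a covariate.

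**Figure D3:**
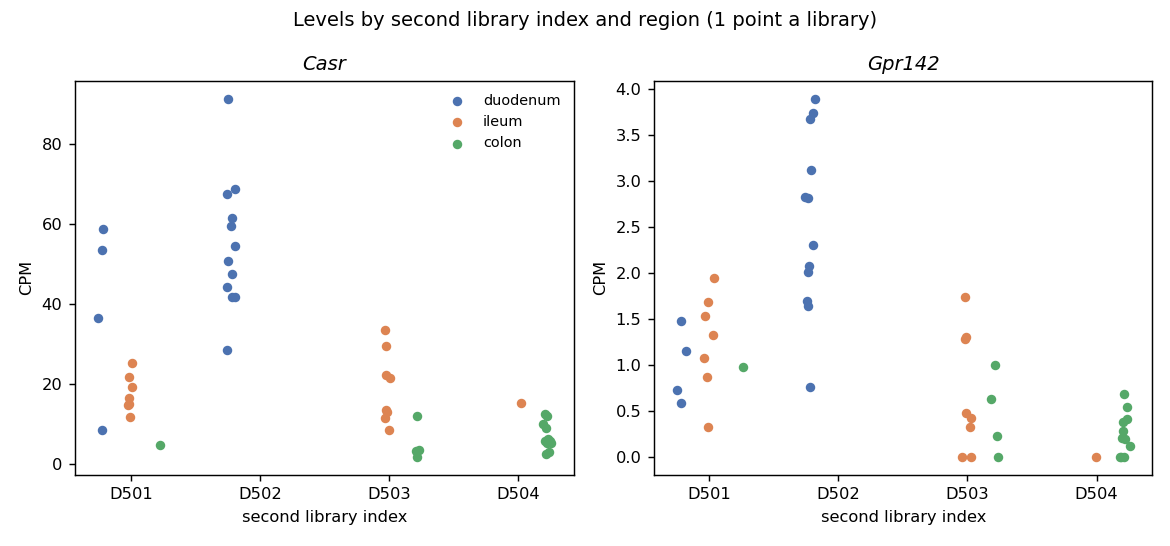
Casr (left) and Gpr142 (right) in CPM (y axis, linear) by library index (x axis), with the region as colour and 1 point per library. Within D501 the ileum and duodenum points of Gpr142 overlap, and those of Casr overlap only through mouse 27 at 8.53 CPM.

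Lpar5, on chromosome 6 (chr6:125067920-125082472, plus strand), had overlapping ranges in all 3 regions. Apart from mouse 27, whose duodenum library had 23.3 CPM, its levels ran from 4.12 to 11.4 CPM in the duodenum. They ran from 5.68 to 14.6 CPM in the ileum, with a median of 9.04 CPM. In the colon they ran from 4.22 to 8.16 CPM, with a median of 6.81 CPM. Within mice, Lpar5 was higher in ileum than duodenum in 12 of 15, and its colon level was below its ileum level in 14 of 16. By edgeR the log2 fold change from ileum to colon was -0.50 ± 0.16 (adjusted p = 0.00827), with a mean of 9.33 ± 2.53 CPM in the ileum and 6.56 ± 1 CPM in the colon (SD, n = 16 each). Between ileum and duodenum the log2 fold change was 0.20 ± 0.16 (adjusted p = 0.369) in all libraries but 0.37 ± 0.14 (adjusted p = 0.0296) without the duodenum library of mouse 27. From duodenum to colon it was -0.31 ± 0.16 (adjusted p = 0.101), and -0.12 ± 0.14 (adjusted p = 0.5) without that library. Within D503 the fall from ileum to colon was from 10 ± 2.91 to 7.39 ± 0.533 CPM (exact permutation p = 0.109, n = 8 and 4), and with the index as a covariate its adjusted p was 0.0564 and that from duodenum to colon 0.0162 (log2 fold change -0.99 ± 0.32).

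**Figure D4:**
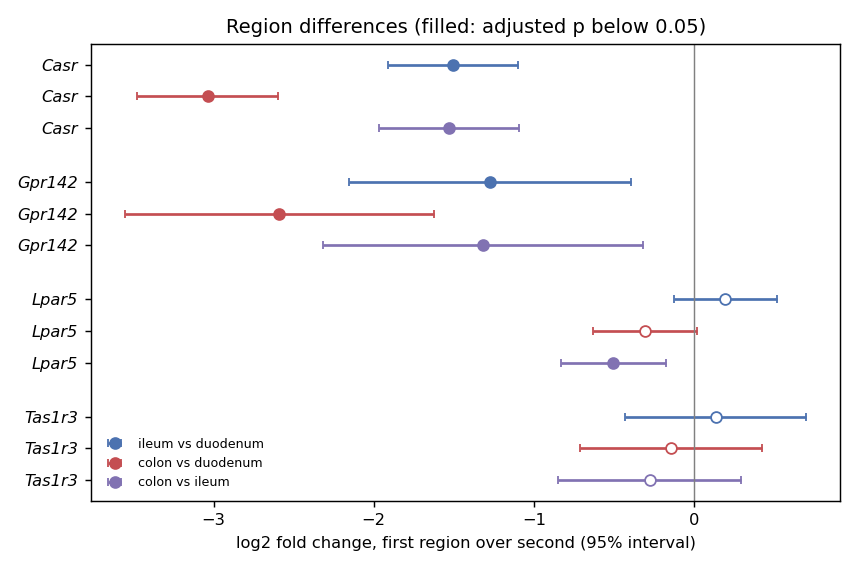
Log2 fold change between regions by edgeR (x axis) with 95% intervals for the 4 tested receptors (rows), coloured by comparison and filled where the adjusted p was below 0.05. Casr lies at -1.51, -3.04 and -1.53, Gpr142 at -1.27, -2.59 and -1.32, and the intervals of Tas1r3 span 0 in all 3 comparisons.

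Tas1r3, on chromosome 4 (chr4:155859268-155863362, minus strand), was low in every region and did not pass the test in any region comparison. It ran from 1.14 to 6.45 CPM in the duodenum, from 1.46 to 4.23 CPM in the ileum and from 0.281 to 5.75 CPM in the colon, with medians of 2.26, 2.61 and 2.25 CPM. The spread was widest in the colon, where the coefficient of variation was 69.3% against 33.5% in the ileum. Log2 fold changes were 0.14 from duodenum to ileum (95% interval -0.43 to 0.70), -0.14 from duodenum to colon (-0.71 to 0.43) and -0.28 from ileum to colon (-0.85 to 0.29), with adjusted p of 0.759, 0.697 and 0.444. Its exons share 36 bases with Dvl1 on the other strand. Whether strand was used in the counting is not given in the sources used here, so its counts are uncertain.

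Tas1r1, also on chromosome 4 (chr4:152027914-152038568, minus strand), had 1 count in the 16 duodenum libraries together, 1 in the ileum libraries and 12 in the colon libraries. Pooled, these are 0.00723 CPM (exact Poisson 95% interval 1.829e-04 to 0.0403), 0.00957 CPM (2.423e-04 to 0.0533) and 0.113 CPM (0.0584 to 0.198), where the intervals cover counting error only. Colon counts came from 6 of 16 libraries, at most 3 in each, so the umami partner of Tas1r3 was close to the limit of detection. Tas1r2, the sweet partner, also had few counts, 14, 2 and 15 in the duodenum, ileum and colon. In a fit of all 40391 genes with a count, the log2 fold change of Tas1r1 was 2.55 ± 0.79 from duodenum to colon (adjusted p = 0.00836) and 2.47 ± 0.82 from ileum to colon (adjusted p = 0.0188), values that depend on the prior count of the fit. Tas1r1 had no count in any S_al or S_wm duodenum library or in any S_al or VSG ileum library.

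Gprc6a, on chromosome 10 (chr10:51614823-51631461, minus strand), was highest in the colon. The duodenum libraries held 32 of its counts, the ileum libraries 11 and the colon libraries 86, or pooled 0.231 CPM (exact Poisson 95% interval 0.158 to 0.326), 0.105 CPM (0.0526 to 0.188) and 0.811 CPM (0.648 to 1). It was present in 16 of 16 colon libraries, at 0.122 to 2.20 CPM, but in 10 of 16 duodenum and 7 of 16 ileum libraries. Within mice it was higher in the colon than in the duodenum in 12 of 15 and than in the ileum in 13 of 16. In the fit of all genes with a count its log2 fold change was 2.87 ± 0.71 from ileum to colon (adjusted p = 7.89e-04), 1.59 ± 0.63 from duodenum to colon (adjusted p = 0.0508) and -1.28 ± 0.70 from duodenum to ileum (adjusted p = 0.299). Gprc6a passed the filter in some refits that left out libraries. There its adjusted p by edgeR ran from 0.00292 to 0.0438 from duodenum to colon and from 0.0563 to 0.397 from duodenum to ileum. The library index partly followed the region for Gprc6a and Tas1r1 as well, and no fit of either gene took it into account.

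The signalling partners of the receptors included genes that rose and genes that fell along the gut. Lists of pathway genes are described by their counts, and the background shares above apply to them. The library index partly followed the region for the pathway and hormone genes too, and their fold changes are from the fit without it. With the index as a covariate, 1713 tested genes differed for ileum against duodenum (5110 without it). For colon against duodenum it was 4236 (8322 without it) and for colon against ileum 5720 (7436 without it). Of 14 genes of the Gq and G12/13 pathways, 13 were tested. Between colon and duodenum 3 were higher and 4 lower, with a median log2 fold change of 0.04 against -0.01 for all tested genes. Gna14, a Gq-family alpha subunit, rose from 0.244 CPM in the duodenum to 2.16 CPM in the ileum and 43.4 CPM in the colon, a log2 fold change of 7.60 ± 0.26 between colon and duodenum (adjusted p = 1.44e-28). Gnaq, another alpha subunit of that family, changed by -0.24 ± 0.06 over the same span (adjusted p = 0.0013). Itpr2, an inositol trisphosphate receptor that releases stored calcium, rose by 1.64 ± 0.16 from duodenum to colon (adjusted p = 6.11e-12), whereas Plcb1, a phospholipase C beta, changed by -1.32 ± 0.17 (adjusted p = 2.87e-09). For ileum against duodenum 6 were higher and 3 lower, and for colon against ileum 3 were higher and 4 lower. The goblet cell marker sum had medians of 3428, 3814 and 9049 CPM along the gut, and the colonocyte sum 89.9, 115 and 1268 CPM. The part of these cells in the rises of Gna14, Itpr2, Gprc6a and, below, Gprc5a was not tested.

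In the LPA pathway the gene for the enzyme that makes the ligand fell along the gut. Enpp2, which encodes autotaxin, went from 107 CPM in the duodenum through 4.28 CPM in the ileum to 0.149 CPM in the colon, with log2 fold changes of -4.59 ± 0.27 from duodenum to ileum (adjusted p = 9.63e-18) and -9.51 ± 0.41 from duodenum to colon (adjusted p = 1.94e-23). Lpar3, another LPA receptor, went from 6.37 to 1.80 and 0.121 CPM, a log2 fold change of -6.48 ± 0.51 between colon and duodenum (adjusted p = 6.54e-15). Of 5 tested genes of this list, 3 fell from duodenum to ileum, 3 fell and 1, Lpar1, rose from duodenum to colon, and 2 fell from ileum to colon. Lpar5 had 6.56 CPM in the colon, where Enpp2 had 14 counts over 16 libraries.

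Among 15 relatives of the class C members, 6 were tested. Gprc5a rose along the gut, with log2 fold changes of 0.94 ± 0.12 to the ileum (adjusted p = 6.34e-09) and 1.72 ± 0.12 to the colon (adjusted p = 8.99e-18) from the duodenum, whereas Gprc5b was lower, at -1.71 ± 0.36 (adjusted p = 1.55e-04) and -3.22 ± 0.40 (adjusted p = 1.93e-09). Gabbr2, a subunit of the GABA-B receptor, was lowest in the ileum at 1.56 CPM, against 4.72 CPM in the duodenum and 9.31 CPM in the colon. Grm4, a glutamate receptor, was at 40.6, 33.2 and 34.4 CPM and passed the test in none of the 3 comparisons (adjusted p of 0.128, 0.198 and 0.749). In total 1 rose and 3 fell from duodenum to ileum, 2 rose and 2 fell from duodenum to colon, and 2 rose and 2 fell from ileum to colon. Of 3 tested receptors for other small metabolites, Gpr35 and Sucnr1 were higher in both distal regions than in the duodenum. Gpr35 rose from 4.86 to 8.24 and 12.2 CPM (log2 fold change 1.31 ± 0.17 between colon and duodenum, adjusted p = 2.66e-09), and Sucnr1, the succinate receptor, had 4, 45 and 98 counts.

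Of 10 genes of taste transduction, 5 were tested. From duodenum to colon 3 rose and 0 fell: Trpm4 rose by 1.48 ± 0.16 (adjusted p = 4.87e-11), Plcb2 by 1.77 ± 0.40 (adjusted p = 1.52e-04) and Trpm5 by 0.85 ± 0.28 (adjusted p = 0.0104) on the log2 scale. Between duodenum and ileum 1 rose and 1 fell, and from ileum to colon 2 rose. The gustducin subunit genes were near the floor, Gnat3 with 8, 20 and 97 counts and Gng13 with 2, 19 and 12 along the gut. Plcb2, Trpm5 and Gnat3 are also known from tuft cells, the chemosensory cells of the epithelium. Of 10 tested tuft markers, 5 rose and 1 fell from duodenum to colon. The sum of the 12 listed ran from 10.5 to 82.8 CPM in duodenum libraries, from 11.5 to 69.6 CPM in ileum libraries and from 26.1 to 77.4 CPM in colon libraries, with no marker at 0 in any region. Their part in these differences was not tested.

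Of 6 tested calcium-handling genes, 4 fell from duodenum to ileum. S100g, the vitamin D-dependent calcium-binding protein calbindin D9k, had 128, 4.70 and 28.8 CPM from duodenum to colon (log2 fold change -4.61 ± 0.47 between ileum and duodenum, adjusted p = 2.25e-10). Trpv6, an epithelial calcium channel, had 30, 2 and 215 counts and was higher in the colon than in the duodenum by 3.07 ± 0.53 on the log2 scale (adjusted p = 2.82e-06). S100g and Trpv6 thus had their lowest level in the ileum, while Casr was lowest in the colon. From duodenum to colon 1 rose and 3 fell, and from ileum to colon 3 rose and 1 fell. S100g and Trpv6 are also known from absorptive enterocytes, whose 8 markers summed to medians of 6107, 7757 and 526 CPM in the 3 regions, with all 8 detected in each. Their part in these differences was not tested.

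The hormone genes of EECs were compared between regions as transcript levels, which do not measure hormone release. Of 12 tested, 7 fell and 2 rose from duodenum to colon. The log2 fold change was -7.38 ± 0.28 for Cck (adjusted p = 5.76e-26), -9.59 ± 0.39 for Ghrl, which encodes ghrelin (adjusted p = 8.11e-24), and 10.67 ± 0.51 for Insl5 (adjusted p = 1.81e-21). From duodenum to ileum 5 rose and 6 fell, and from ileum to colon 2 rose and 8 fell.

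Among the genes whose level over the 48 libraries was most like that of Casr, out of 15125, were Fgf14 (Pearson r = 0.937 in log2 CPM) and Abcc8 (0.932), the sulfonylurea receptor subunit of the ATP-sensitive potassium channel. These correlations share the region differences. After subtraction of the 9 group means the most alike were Insm1 (0.834), Ubqln2 (0.815) and Prox1 (0.808). Without the duodenum library of mouse 27 those 3 were at 0.706, 0.668 and 0.657 and ranked 3, 10 and 13, whereas Fgf14 and Abcc8 stayed at 0.937 and 0.932. For Gpr142 the pooled neighbours were Itm2c (0.754), Col11a2 (0.744) and Acer2 (0.735), and after subtraction Atp8b5 (0.707), Gm48869 (0.637) and Rab12 (0.634). Lpar5 was most like Coro1c (0.746), AU040320 (0.742) and Selenoi (0.738), and after subtraction like Wasf2 (0.739), Heatr5a (0.727) and Slc4a4 (0.719). All 6 values of Lpar5 were lower without mouse 27, between 0.542 and 0.655. Tas1r3 was most like Gm17690 (0.617), Gm43328 (0.602) and Cuedc1 (0.589), and after subtraction like Bmp1 (0.664), Adora3 (0.622) and Cuedc1 (0.599). The libraries share mice, regions and depth, and the values are descriptions.

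Whether VSG or weight loss moved the receptors was asked in 12 comparisons, of which 3 averaged the regions and 9 were within a region. None of the 4 tested members passed the test in any of them with edgeR, with DESeq2 or with limma voom, and 4 of the 48 tests had an unadjusted p below 0.05 (Casr in the colon against both sham groups and averaged against S_wm, and Lpar5 in the duodenum between the sham groups). Averaged over regions, 0% of tested genes differed between VSG and S_al mice (837 at an unadjusted p below 0.05, 26 by DESeq2 and 0 by limma voom), 0.245% between VSG and S_wm and 0.0529% between S_wm and S_al. For the last 2 pairs, averaged over regions, DESeq2 called 102 and 13 genes and limma voom 9 and 4. Between VSG and S_wm mice DESeq2 called 216, 21 and 15 genes in duodenum, ileum and colon and limma voom 5, 7 and 9. By edgeR the share there was 0.225%, 0.0463% and 0.0595%. Between VSG and S_al it was 0% in each region, where 370 duodenum genes, 932 ileum genes and 950 colon genes had an unadjusted p below 0.05. DESeq2 called 0, 5 and 0 of these comparisons' genes and limma voom 0, 0 and 1. Between S_wm and S_al it was 0%, 0% and 0.0132%, where 990, 1188 and 553 genes had an unadjusted p below 0.05, DESeq2 called 3, 6 and 3 and limma voom 0, 0 and 1. Each surgery group enters 2 of the 3 pairs, so the comparisons share samples.

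Casr had the lowest p of the members. Averaged over regions its log2 fold change between VSG and S_wm mice was -0.69 ± 0.21 (95% interval -1.10 to -0.28, adjusted p = 0.173 by edgeR), with 22.3 CPM over 18 VSG libraries and 29.8 CPM over 15 S_wm libraries. Against S_al mice it was -0.31 ± 0.21 (adjusted p = 0.992), and between S_wm and S_al mice 0.38 ± 0.21 (adjusted p = 0.821). The call depended on mouse 27. Without its duodenum library the log2 fold change between VSG and S_wm was -0.78 ± 0.17 with an adjusted p of 0.0212, and without all libraries of mouse 27 it was -0.83 ± 0.17 with an adjusted p of 0.0215. Both fits treat the libraries of 1 mouse as independent, and no fit with a mouse block was made without mouse 27. In the other alternatives the adjusted p ran up to 0.966, with limma voom and the mouse as a random block, where the log2 fold change was -0.58 ± 0.33.

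The colon held the lowest Casr values after VSG. The VSG libraries had 1.69, 5.10, 5.67, 2.52, 2.97 and 3.21 CPM. The S_al libraries had 4.75, 11.9, 9.84, 6.14 and 3.40 CPM. The S_wm libraries had 5.17, 8.92, 5.57, 12.5 and 11.9 CPM. Of the 6 VSG libraries, 5 were below every S_wm library and 4 below every S_al library, and the groups overlapped in each pair. The log2 fold change was -1.26 ± 0.39 against S_wm (adjusted p = 0.92) and -1 ± 0.39 against S_al (adjusted p = 0.777) by edgeR. The EEC marker sum had a median of 46790 CPM in VSG, 44970 CPM in S_wm and 64710 CPM in S_al colon libraries. In the same order the colonocyte marker sum had medians of 1372, 1442 and 713.5 CPM and the goblet cell sum 9995, 8185 and 8133 CPM. Over the 48 libraries, after group means were subtracted, Casr had a Pearson r of -0.544 with the colonocyte sum. The part of cell content in the Casr values was not tested.

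In the ileum Casr was 16.4 ± 6.17 CPM after VSG (SD, n = 6), 23.7 ± 7.59 CPM in S_wm (n = 5) and 14.9 ± 4.07 CPM in S_al mice (n = 5). The log2 fold changes there were -0.54 ± 0.34 between VSG and S_wm, 0.14 ± 0.35 between VSG and S_al and 0.68 ± 0.36 between S_wm and S_al, with adjusted p of 0.865, 0.994 and 0.672. In the duodenum it was 47.1 ± 14 CPM after VSG, 56.8 ± 30.3 CPM in S_wm (68.9 ± 15.9 CPM without mouse 27, n = 4) and 49.3 ± 8.36 CPM in S_al mice. The log2 fold changes there were -0.27 ± 0.33 between VSG and S_wm and -0.06 ± 0.33 between VSG and S_al (adjusted p = 0.948 and 1), and between S_wm and S_al 0.21 ± 0.34 (adjusted p = 0.999). Whether the differences between surgery groups in Casr varied between regions was tested directly. The joint interaction test, which takes the VSG and S_wm terms together, gave an adjusted p of 1. Of the tested genes 0% passed it (741 at an unadjusted p below 0.05, 10 by DESeq2 and 0 by limma voom). The difference between the VSG to S_al effects in colon and ileum was -1.14 ± 0.53 (adjusted p = 0.598).

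**Figure D5:**
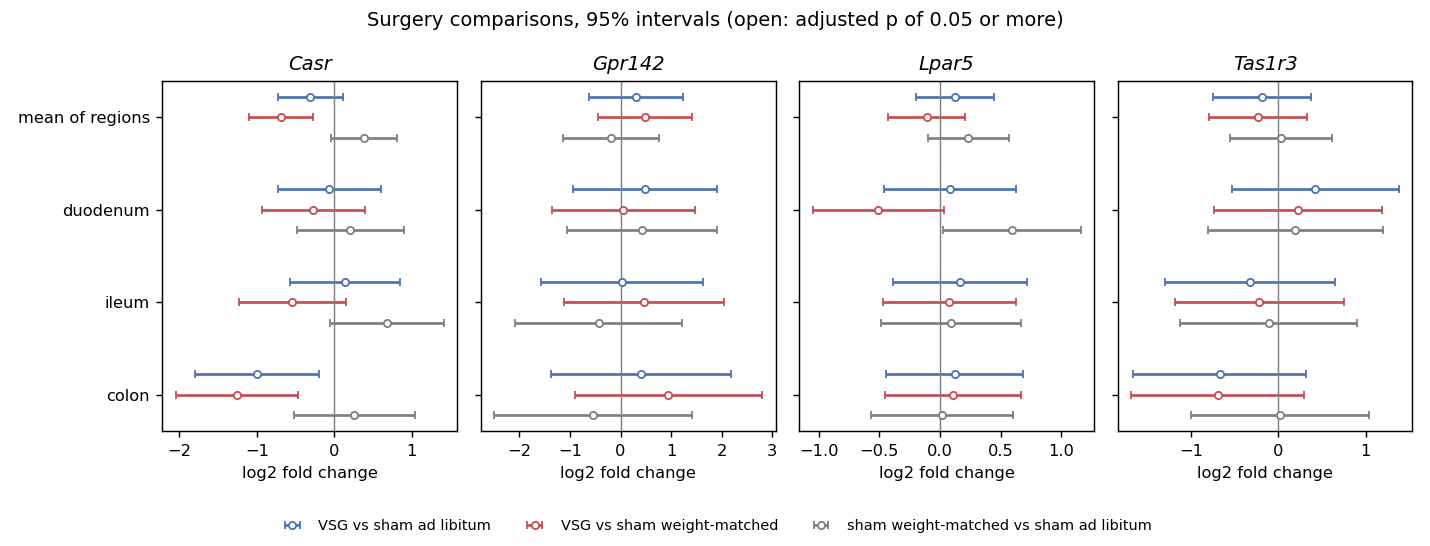
Log2 fold change between surgery groups (x axis) with 95% intervals for Casr, Gpr142, Lpar5 and Tas1r3 (panels), averaged over regions or within a region (rows) and coloured by comparison. All points are open, since no adjusted p was below 0.05, and the Casr intervals for VSG in the colon lie below 0, at -1.26 against S_wm and -1 against S_al.

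For Lpar5 the averaged log2 fold changes were 0.12 ± 0.16 between VSG and S_al, -0.11 ± 0.16 between VSG and S_wm and 0.23 ± 0.17 between S_wm and S_al, with adjusted p of 1, 0.889 and 0.867. In the duodenum S_wm mice had 10.4 ± 7.25 CPM (SD, n = 5) and S_al mice 6.85 ± 1.93 CPM (n = 5), a log2 fold change of 0.59 ± 0.28 (adjusted p = 0.741 by edgeR). Without mouse 27 the S_wm mean was 7.24 ± 1.27 CPM (n = 4). The VSG mean was 7.33 ± 2.41 CPM (n = 6), with a log2 fold change of -0.51 ± 0.27 against S_wm that was 0.01 without that library. For Gpr142 the averaged log2 fold changes were 0.31 ± 0.46 (95% interval -0.62 to 1.23), 0.49 ± 0.46 (-0.44 to 1.42) and -0.18 ± 0.47 (-1.14 to 0.77) in the same order, with adjusted p of 1, 0.788 and 0.968. For Tas1r3 they were -0.19 ± 0.28 (-0.75 to 0.37), -0.23 ± 0.28 (-0.79 to 0.34) and 0.04 ± 0.29 (-0.55 to 0.62), with adjusted p of 1, 0.859 and 0.993. The intervals of Gpr142 reach beyond 1 on the log2 scale in each of these comparisons. Within regions the edgeR estimates of Tas1r3 for VSG differed in sign, and none passed the test. In the duodenum they were 0.43 ± 0.48 against S_al and 0.23 ± 0.48 against S_wm. In the ileum they were -0.322 ± 0.485 and -0.215 ± 0.482. In the colon they were -0.67 (95% interval -1.66 to 0.32) and -0.69 (-1.68 to 0.30), with intervals that reach beyond -1. Colon Tas1r3 was uneven within groups, from 0.281 to 5.75 CPM in S_al and from 0.419 to 3.27 CPM in VSG mice.

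For Gprc6a and Tas1r1 few counts stood behind the surgery comparisons. In the fit of all genes with a count the log2 fold changes of Gprc6a averaged over regions were 0.42 ± 0.63 between VSG and S_al, -0.14 ± 0.55 between VSG and S_wm and 0.56 ± 0.64 between S_wm and S_al, each with an adjusted p of 1. Tas1r1 was at 0 in every S_al duodenum and ileum library, and no fold is given.

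None of the pathway genes passed the test in a surgery comparison. The lowest p values were in the duodenum between VSG and S_wm mice, for the plasma membrane calcium pump gene Atp2b1 (log2 fold change -0.71 ± 0.18, adjusted p = 0.0594) and for S100g (-2.54 ± 0.66, adjusted p = 0.072). Of the cell type markers, 1 enterocyte and 2 Paneth cell markers were lower after VSG in that same comparison. The enterocyte marker sum of mouse 27, a library of its S_wm group, is given above, and without that library 0 genes passed this comparison against 34 with it. Lpar3 had a log2 fold change of -1.42 ± 0.46 between VSG and S_wm averaged over regions (adjusted p = 0.229).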

How the data were processed

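RNA of FACS-sorted cells was sequenced with the SMARTer stranded total RNA kit (single-end). Per the labels and the study's methods, the authors aligned reads with STAR 2.5.1 to GRCm38 and deposited unnormalized counts per Ensembl gene. Whether counting used strand is not given in the sources used here. Groups came from the labels. Genes were filtered with filterByExpr and TMM-scaled, and 1 model over the 9 groups was fitted in edgeR 4.0.16 (R 4.3.3) with a quasi-likelihood test, Benjamini-Hochberg adjustment and a threshold of 0.05. The model had no term for the mouse. DESeq2 1.42.0, limma 3.58.1 and other filters, scalings, left-out libraries and the library index served as alternatives. Within-index comparisons were added after seeing the data. Poisson intervals (95%) cover counting error only. The members and lists were chosen with earlier results of these data known. All members are named, with the 3 genes of highest correlation for each tested one and, of each list, up to 3 genes of lowest p per region comparison and up to 2 per surgery comparison; 1 gene that this rule names is not reported here. Gnaq, Lpar1, Grm4, Gnat3, Gng13, Tas1r2 and the cell type markers named singly were chosen after their values were seen. Libraries with the same number come from the same mouse: after group means were removed, 46 same-mouse pairs correlated at 0.105 (median), and libraries of different mice at -0.0075. The fit was tested on simulated data.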

Additional observations from a re-analysis of the deposited data

Results flagged for a closer look

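Of 50 groups of 5 or 6 libraries examined, 10 had a library whose gap to the nearest other one exceeded Dixon's 95% limit. For normally distributed values chance gives about 1 group in 20, but in 4 of the 10 every other library of the group was at 0, so that a single library with counts had to exceed the limit. For Lpar5 this was the duodenum library of S_wm mouse 27, at 23.3 CPM (161 counts) where the next was at 8.53 CPM. The same library had the lowest EEC and the highest enterocyte marker sum of the duodenum, and the part of these in its Lpar5 value was not tested. Tas1r3 was at 6.45 CPM (64 counts) in the duodenum of VSG mouse 30, where the next was at 2.94 CPM, and at 1.48 CPM (12 counts) in the colon of S_wm mouse 16, the lowest of a group whose next value was 2.79 CPM. Gpr142 was at 0.974 CPM (8 counts) in the colon of S_al mouse 12, a library with contradicting labels, where the next was at 0.281 CPM. Gprc6a was at 0.806 CPM (8 counts) in the duodenum of VSG mouse 30, at 0.801 CPM (5 counts) in the ileum of S_wm mouse 29 and at 0.239 CPM (1 count) in the ileum of S_al mouse 19. Tas1r1 was at 0.126 CPM in the duodenum of VSG mouse 28 and at 0.131 CPM in the ileum of S_wm mouse 31, 1 count each, and at 0.432 CPM (3 counts) in the colon of S_wm mouse 21, where the other libraries of each group had none. Of 36 tests of whether a surgery effect on a tested member differed between regions, 0 passed (edgeR, 741 of all tested genes at an unadjusted joint p below 0.05).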

How the results depend on the processing

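The Casr falls from duodenum to colon and from ileum to colon passed the test in every refit, the Gpr142 calls and the Lpar5 call did not, and the levels of all 6 members moved by less than 1 SD. Duodenum and colon shared an index, D501, through 1 colon library only, that of mouse 12 with contradicting labels. The index refit thus compared these regions mostly by way of the ileum libraries. Within D503 the Casr fall from ileum to colon had an adjusted exact permutation p of 0.05, not below the threshold. Gprc6a and Tas1r1 had too few counts to pass the filter in the fit reported, but Gprc6a passed it in some refits with libraries left out. The number of members called from ileum to colon was 3 in the fit reported, 5 with no filter on low counts (which adds Gprc6a and Tas1r1) and 1 with the library index as a covariate, and in the other alternatives it ran from 2 to 4. From duodenum to ileum it was 0 with the index and 1 with a stricter filter, which leaves Gpr142 untested, and from duodenum to colon 1 with that filter. Omitting the duodenum library of mouse 27 gave 1 call, Casr, between VSG and S_wm averaged over regions. Leaving out 1 mouse at a time gave 1 to 3 calls from duodenum to ileum and 0 to 1 for that VSG comparison. Except where the construction shows it, the cause was not tested.

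Signs turned with the index as a covariate for Gpr142 (0.455 from duodenum to ileum, 0.277 to colon), Lpar5 (-0.508 to ileum), Tas1r3 (0.065 to colon) and Casr between S_wm and S_al in the duodenum (-0.354), and within index D501 for Gpr142 (0.232, and 0.139 without mouse 27) and Lpar5 (-0.166). Without mouse 12's doubtful libraries Gpr142 between S_wm and S_al was 0.035, and without mouse 27's duodenum Lpar5 between VSG and S_wm was 0.060 averaged and 0.010 in the duodenum. Leaving out 1 mouse, the log2 fold changes ran from -0.198 to 0.024 (Lpar5, VSG against S_wm, averaged), -0.078 to 0.144 (Tas1r3, S_wm against S_al, averaged), -0.675 to 0.010 (Lpar5, VSG against S_wm, duodenum), -0.202 to 0.047 (Casr, VSG against S_al, duodenum), -0.012 to 0.299 (the same, ileum) and -0.031 to 0.484 (Casr, S_wm against S_al, duodenum).

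With the mouse as a replicate block, the Gpr142 call from ileum to colon was lost (log2 fold change -1.206 with a fixed block in edgeR, -1.044 with a random block in limma voom), and no other region call of a member changed. With the random block, 3 surgery values turned sign without a call: 0.015 for Gpr142 (S_wm against S_al, averaged), 0.021 for Casr (VSG against S_wm, duodenum) and -0.091 for Casr (S_wm against S_al, duodenum).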
